A study of Mus musculus with 13 samples.

Results

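This account covers the CC chemokine genes of mouse chromosome 11, in the H3K27ac ChIP-seq of bone marrow-derived macrophages. The 9 genes are Ccl2, Ccl7, Ccl12, Ccl8, Ccl5, Ccl9, Ccl6, Ccl3 and Ccl4. They were chosen by name and position, with earlier results of these data known. Every island (a stretch of the genome called as enriched) that touched a gene span or the 1 kb on either side was assigned to that gene. Islands of 13 libraries were joined into 39569 union regions, which touched 14655 protein-coding genes. All 9 chemokine genes lay in 3 of these regions, and each of the 3 was called in 13 of 13 libraries.

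H3K27ac is an acetylated histone that marks active promoters and enhancers. ChIP-seq recovers the DNA bound to it with an antibody and counts the reads at each place. The cells were primary C57BL/6 macrophages at day 7 of differentiation, grown from bone marrow in medium conditioned by L929 cells, a source of the growth factor CSF1. The cytokine experiment has 7 libraries. Treatment with IFNγ at 100 ng/ml, with IL-4 at 10 ng/ml and with the 2 together each gave a library at 2 h and another at 4 h, and untreated cells gave 1. In the knockdown experiment, cells carrying an shRNA against JunB, an shRNA against CEBP-beta or a scrambled control shRNA each gave a library with IFNγ (100 ng/ml) for 4 h and an untreated library. JunB is an AP-1 transcription factor and CEBP-beta a bZIP transcription factor of the macrophage response. How the shRNAs were delivered is not given in the sources used here. An shRNA acts on the transcript, so acetylation does not check either knockdown. Each condition had 1 library and no replicate, so comparisons of single libraries carry no test. Their 95% intervals are exact binomial ones and cover counting error only. Where pairs of libraries share a treatment, a model was fitted over them, and its p-values rest on the spread between those pairs. In the fits over the cytokine libraries, the pairs against untreated cells share 1 library. Their spread also holds differences between times and between states of the other cytokine.

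CC chemokines are small secreted proteins that draw leukocytes along a gradient by binding G protein-coupled receptors. In the mouse, Ccl2, Ccl7 and Ccl12 recruit monocytes through Ccr2, and Ccl8 attracts T cells through Ccr8. Ccl5 (RANTES) and Ccl3 bind Ccr1 and, like Ccl4, attract T cells and monocytes. Ccl9 and Ccl6 are rodent chemokines that act on Ccr1. IL-4 acts in macrophages through STAT6.

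On the mm10 build (GRCm38), the genes formed 2 blocks. The first ran over 81.2 kb and held Ccl2 (chr11:82035577-82037452), Ccl7 (chr11:82045712-82047525), Ccl12 (chr11:82101845-82103399) and Ccl8 (chr11:82115185-82116799). The second began 1.41 Mb further on, ran over 138.9 kb and held Ccl5 (chr11:83525778-83530518), Ccl9 (chr11:83572917-83578636), Ccl6 (chr11:83587886-83593087), Ccl3 (chr11:83647843-83649378) and Ccl4 (chr11:83648624-83664683). The annotated spans of Ccl3 and Ccl4 overlap, and the islands carry no strand, so these 2 genes could not be separated. The RefSeq promoter table of GRCm38.p6 held 5 of the 9 genes. The 250 bases before the start of 4 of them are shown. The first pair belongs to the block that gained acetylation with IFNγ, and the second pair to the region that lost it. Capitals mark matches to the motifs searched.
Ccl12 (chr11:82101595-82101844, plus strand): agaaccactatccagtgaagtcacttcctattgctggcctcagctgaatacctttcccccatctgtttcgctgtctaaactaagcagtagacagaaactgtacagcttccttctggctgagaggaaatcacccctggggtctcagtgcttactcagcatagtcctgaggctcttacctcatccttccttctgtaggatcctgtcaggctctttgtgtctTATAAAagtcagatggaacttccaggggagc
Ccl8 (chr11:82114935-82115184, plus strand): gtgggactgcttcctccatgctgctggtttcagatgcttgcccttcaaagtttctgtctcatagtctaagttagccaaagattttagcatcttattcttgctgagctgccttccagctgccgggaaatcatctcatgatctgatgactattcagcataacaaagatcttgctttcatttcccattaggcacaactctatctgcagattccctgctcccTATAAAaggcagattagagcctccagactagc
Ccl9 (chr11:83578637-83578886, minus strand): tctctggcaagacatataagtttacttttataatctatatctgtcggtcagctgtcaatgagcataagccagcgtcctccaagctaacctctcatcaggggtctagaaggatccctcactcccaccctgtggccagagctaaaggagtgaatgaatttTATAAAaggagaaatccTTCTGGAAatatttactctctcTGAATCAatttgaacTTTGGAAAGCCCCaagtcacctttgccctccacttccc
Ccl6 (chr11:83593088-83593337, minus strand): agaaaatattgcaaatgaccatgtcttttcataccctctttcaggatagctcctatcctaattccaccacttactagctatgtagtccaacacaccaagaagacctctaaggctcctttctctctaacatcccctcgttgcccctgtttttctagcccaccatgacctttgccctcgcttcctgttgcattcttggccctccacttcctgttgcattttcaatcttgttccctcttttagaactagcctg

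The motifs searched were TATAAA on the gene's strand and, on both strands, the kappa B motif (GGG and CC, 5 bases apart), the STAT6 motif (TTC and GAA, 4 bases apart), the ISRE motif (GAAA and GAAA, 2 bases apart), TGANTCA (AP-1) and TTNNGNAA (C/EBP). TATAAA stood at -31 to -26 from the start of Ccl12 and at -32 to -27 from that of Ccl8, and 7.59% of 32851 promoters of the same length held it. These 2 promoters were 57.5% identical over their alignment, the highest of the pairs compared, the others being 48.1% to 54.2% identical. The Ccl9 promoter held TATAAA at -92 to -87 and the AP-1 match TGAATCA at -53 to -47, a motif found in 6.75% of all promoters. It also held C/EBP matches at -75 to -68 and -38 to -31, and a kappa B match at -35 to -26 that overlaps the second of these. C/EBP matches occurred in 36.8% of all promoters and kappa B matches in 45.8%. The Ccl6 promoter held none of these motifs in this window. The Ccl3 promoter held 1 C/EBP match, at -100 to -93. None of the 5 promoters held the STAT6 or ISRE letters, which were present in 5.85% and 2.98% of all promoters. A match is a string of letters and not a measured binding site.

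**Figure D1:**
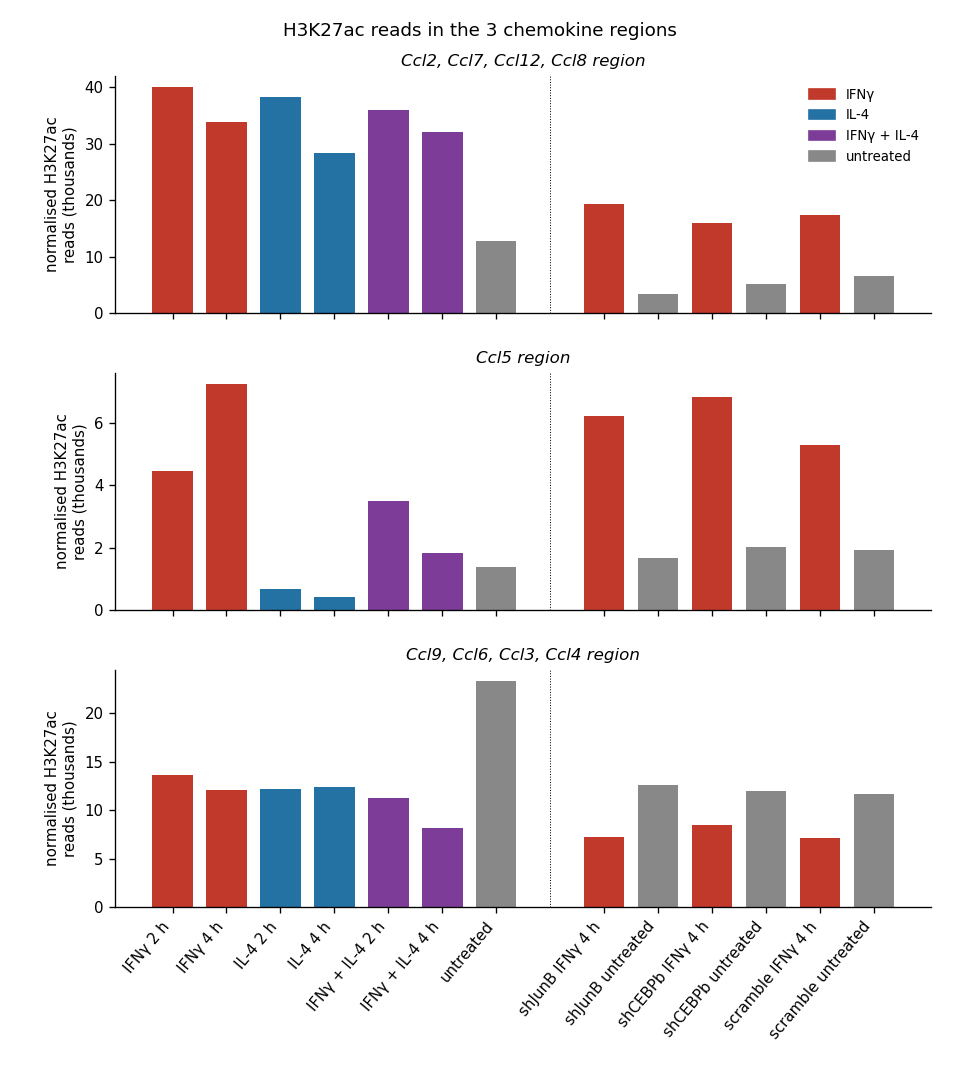
Normalised H3K27ac reads (vertical axis, from 0) in the 3 regions that hold the chemokine genes, 1 bar per library with no replicate, treated libraries left of their untreated library, cytokine experiment left of the dotted line. Within each experiment, bars of treated cells are the taller ones in the Ccl2-to-Ccl8 region and the shorter ones in the Ccl9-to-Ccl4 region. In the Ccl5 region both bars of IL-4 alone (670.4 and 413.3) are below untreated cells of the cytokine experiment (1376.5).

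Library totals ran from 21712118 to 37419916 reads in the cytokine experiment and from 14340693 to 29512926 in the knockdown experiment, with 77.1% to 80.0% and 65.1% to 73.0% of reads inside islands. All 10 macrophage marker genes fixed for the check carried islands in every library, and their summed normalised reads lay between 63814.6 and 83443.6 in the cytokine experiment and between 54407.9 and 62954.9 in the knockdown experiment. Of the T cell markers 4 to 5 of 7 were called per library (summed level 1112.8 to 3859.9), but Cd3g and Themis in none. Of the B cell markers 4 of 6 were called (2871.1 to 8436.5), but Pax5 and Ebf1 in no library. Of the neutrophil markers 1 to 3 of 6 were called (429.9 to 2233.6), with Ly6g, S100a9 and Mpo in no library, and of the mast cell and basophil markers 1 to 3 of 5 (818.6 to 5785.6), with Mcpt8 and Fcer1a in no library. Of the fibroblast markers 1 to 2 of 7 were called (9661.4 to 15810.9), with Col1a2, Col3a1, Dcn, Pdgfra and Lum in no library. All 5 dendritic cell markers were called in at least 1 library, with 4 to 5 called per library and a summed level of 8011.2 to 19644.4. The part of other cells in the results was not tested. In these bulk samples, fewer cells that carry the mark and less of it per cell cannot be told apart.

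Ccl2, Ccl7, Ccl12 and Ccl8 shared 1 region of 140.8 kb (chr11:81981801-82122600), the 39th longest of the series, together with Ccl11 and the predicted genes Gm11419, Gm31522 and Gm38913. Acetylation of this region was higher with every cytokine treatment than without. It held 40085.2 normalised reads after IFNγ for 2 h and 33835.4 after IFNγ for 4 h. It held 38317.5 after IL-4 for 2 h and 28328.9 after IL-4 for 4 h. With both cytokines it held 36071.3 at 2 h and 32137.0 at 4 h, against 12750.6 in untreated cells. All 6 treated libraries were more than 2.0-fold above the untreated one, and the treated libraries themselves lay close together. In single comparisons with that untreated library, 12.4% to 20.9% of the regions compared were at least 2.0-fold higher. The 6 comparisons share 1 untreated library, and the share of regions higher in all 6 was not counted. The ratio to untreated cells was 3.14 (95% interval 3.08 to 3.21) for IFNγ at 2 h and 2.65 (2.60 to 2.71) at 4 h. For IL-4 it was 3.01 (2.94 to 3.07) at 2 h and 2.22 (2.17 to 2.27) at 4 h. The region ranked 2nd or 3rd by normalised reads among all regions called in each of the 6 treated libraries, and 118th in untreated cells.

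With both cytokines the Ccl2-to-Ccl8 region held no more than with IFNγ alone. The ratio of both cytokines to IFNγ alone was 0.900 at 2 h and 0.950 at 4 h, and that of both to IL-4 alone was 0.941 at 2 h and 1.13 at 4 h. The ratio of 4 h to 2 h was 0.844 with IFNγ, 0.739 with IL-4 and 0.891 with both, so the signal was lower at 4 h in each. Averaged over the states of the other cytokine, the effect at this region was 0.60 ± 0.36 for IFNγ and 0.44 ± 0.36 for IL-4 on the log2 scale (SE, 7 libraries; adjusted p = 0.342 and 0.556 in edgeR's quasi-likelihood test), and neither was called. Without the untreated library the IFNγ estimate was 0.05 and the IL-4 estimate -0.11. The term for an IL-4 effect that depends on IFNγ was -1.63 on the log2 scale (7 libraries). It did not pass the threshold in edgeR and passed it in DESeq2. Untreated cells gave the only library with neither cytokine, and the fit matches that library exactly. The spread in this fit therefore comes from the treated libraries alone, and neither result covers the spread of untreated cells.

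The same region carried more acetylation after IFNγ for 4 h in each shRNA background. It held 19284.0 normalised reads with IFNγ and 3443.4 without in cells with the JunB shRNA. It held 15914.6 with IFNγ and 5201.8 without in cells with the CEBP-beta shRNA. In scramble cells it held 17411.7 with IFNγ and 6534.2 without. The 3 IFNγ libraries did not overlap the 3 untreated ones, a separation whose share over all regions was not counted. The widest ratio was that of the JunB shRNA cells. The ratio was 5.60 (5.40 to 5.81) with the JunB shRNA, 3.06 (2.97 to 3.15) with the CEBP-beta shRNA and 2.66 (2.58 to 2.75) with the scramble. Over the 4 pairs of libraries with and without 4 h of IFNγ (the cytokine experiment and the 3 shRNA backgrounds), the region rose by 1.73 ± 0.20 on the log2 scale (SE, 8 libraries, background as block), with an adjusted p of 0.00276 in edgeR's quasi-likelihood test. It was higher in 4 of 4 pairs, and the estimate was 1.48 without the JunB shRNA pair. In this fit 44.0% of 15598 regions were called, so a call alone does not set these genes apart.

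**Figure D2:**
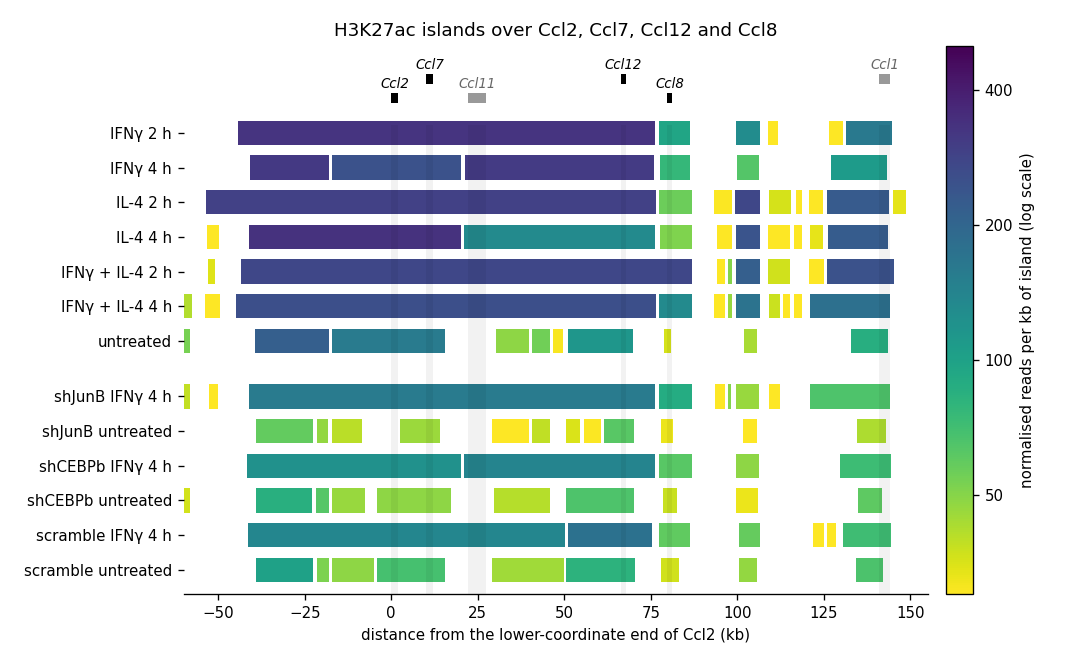
Islands over the block from Ccl2 to Ccl8, drawn to scale by distance in kb from the lower coordinate of Ccl2, 1 row per library with treated rows above their untreated row, and shaded by normalised reads per kb. Islands of treated libraries run together to as much as 130.4 kb, while those of untreated libraries stay separate and at most 32.8 kb long.

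The length of the islands called over the block changed as well as the reads in them. A change of shape apart from amount was not tested. The island over Ccl2 and Ccl7 was 130.0 kb long after IL-4 for 2 h, 130.4 kb with both cytokines for 2 h, and 120.4 kb after IFNγ for 2 h, against 32.8 kb in untreated cells. It was 117.2 kb with IFNγ and 11.6 kb without in JunB shRNA cells, where the untreated island reached only the 1 kb beside Ccl2 and not the gene itself. In scramble cells it was 91.6 kb with IFNγ and 19.6 kb without, and in CEBP-beta shRNA cells 62.0 kb with and 21.4 kb without. Among treated libraries, IFNγ for 4 h in the cytokine experiment gave the shortest island over Ccl2 and Ccl7, of 37.4 kb, with further islands on both sides of it. Ccl11, the eotaxin gene between Ccl7 and Ccl12, was covered by an island in all 9 treated libraries and in none of the 4 untreated ones. The share of all genes with that pattern was not counted.

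Because 4 genes share the region, each gene was also given the density of its own islands, in normalised reads per kb of island. This measure was added after the data were seen, it depends on the length called, and genes in 1 island share a value. Ccl2 and Ccl7 had 326 after IFNγ for 2 h and 246 after 4 h, 291 and 334 after IL-4 for 2 h and 4 h, and 276 and 254 with both, against 156 in untreated cells. Ccl12 had 326 and 308 after IFNγ, 291 and 131 after IL-4, and 276 and 254 with both, against 114 in untreated cells. Ccl8 had 95.6 and 76.9 after IFNγ, 56.3 and 51.6 after IL-4, and 276 and 132 with both, against 35.8 in untreated cells. Ccl8 at the end of the block was thus the gene with the lowest density in all but the library with both cytokines at 2 h, where 1 island held all 4 genes. Over the 4 pairs with and without 4 h of IFNγ, density rose by 1.18 ± 0.16 for Ccl2 and Ccl7, 1.24 ± 0.10 for Ccl12 and 0.98 ± 0.18 for Ccl8 on the log2 scale (SE, 8 libraries). The adjusted p-values were 0.0017, 0.000135 and 0.00648 in edgeR's quasi-likelihood test, which called 14.7% of 11846 genes. In the 7 cytokine libraries, an IFNγ effect averaged over IL-4 states was called for Ccl8 only among the genes of the first block, at 1.63 ± 0.23 (adjusted p = 0.00515 in edgeR, with 2.59% of genes called). This fit includes the library with both cytokines at 2 h, where the Ccl8 value of 276 is that of the 130.4 kb island shared by all 4 genes. The part of that merged island in the call was not tested.

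**Figure D3:**
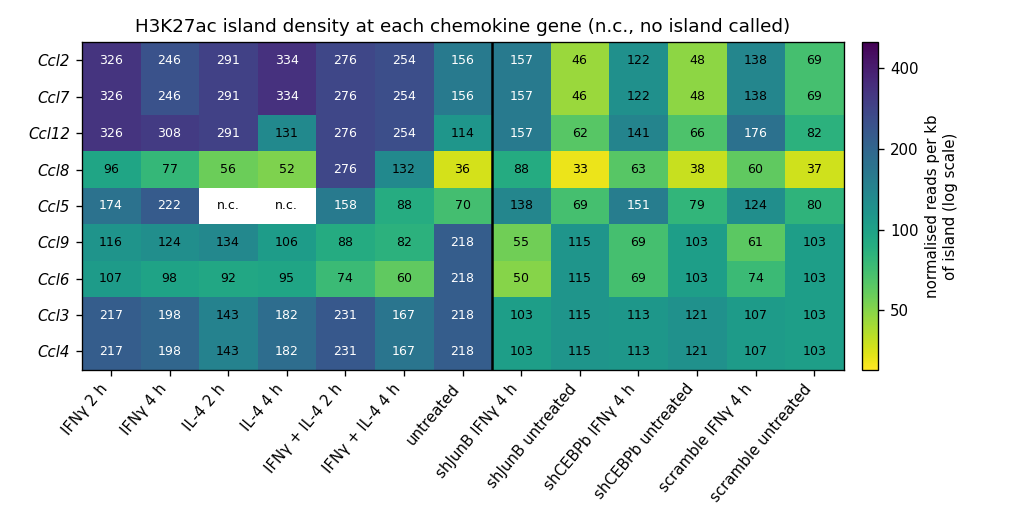
Heat map of island density at the 9 chemokine genes (rows) in 13 libraries (columns, treated left of untreated), shaded on a log scale by normalised reads per kb of island, with the value printed in each cell and n.c. where no island touched the gene. Within each experiment the first block is denser in treated cells, and the islands at Ccl9 and Ccl6 are denser in untreated cells. Those untreated islands also hold Ccl3 and Ccl4, except in CEBP-beta shRNA cells. Ccl5 has no island in either library with IL-4 alone.

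Ccl5 lay in a region of 46.2 kb (chr11:83507001-83553200) that also holds Taf15, Heatr9, Gm23247 and Gm32650. It was the one region of the cluster in which IFNγ and IL-4 alone stood on opposite sides of untreated cells. The region held 4454.4 normalised reads after IFNγ for 2 h and 7237.3 after 4 h. It held 670.4 after IL-4 for 2 h and 413.3 after 4 h, and 3499.2 and 1814.4 with both cytokines at 2 h and 4 h, against 1376.5 in untreated cells. The ratio to untreated cells was 3.24 (3.03 to 3.46) for IFNγ at 2 h and 5.26 (4.94 to 5.60) at 4 h. After IL-4 the region was 2.05-fold (1.86 to 2.26) lower than in untreated cells at 2 h and 3.33-fold (2.98 to 3.72) lower at 4 h. With both cytokines it was 2.54-fold (2.38 to 2.72) higher at 2 h and 1.32-fold (1.23 to 1.41) higher at 4 h.

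Set against IFNγ alone, both cytokines gave a 1.27-fold lower signal at the Ccl5 region at 2 h and a 3.99-fold (3.82 to 4.16) lower signal at 4 h. Set against IL-4 alone, both gave 5.22-fold (4.80 to 5.68) more at 2 h and 4.39-fold (3.97 to 4.86) more at 4 h. The signal was 1.62-fold higher at 4 h than at 2 h of IFNγ, and 1.93-fold lower at 4 h than at 2 h with both. Over the 7 cytokine libraries, the IFNγ effect averaged over IL-4 states was 2.19 ± 0.25 on the log2 scale (SE; adjusted p = 0.0225 in edgeR's quasi-likelihood test), in which 7.22% of 15355 regions were called. That call was lost when any 1 of the libraries was left out, with adjusted p-values of 0.0548 to 0.131 in edgeR. The IL-4 effect averaged over IFNγ states was -1.24 ± 0.35 (SE; adjusted p = 0.164 in edgeR), in a fit that called 0.189% of regions.

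In the knockdown experiment the Ccl5 region held 6226.3 normalised reads with IFNγ and 1682.8 without in JunB shRNA cells. It held 6811.6 with IFNγ and 2036.1 without in CEBP-beta shRNA cells, and 5296.2 with IFNγ and 1910.8 without in scramble cells. The IFNγ libraries lay above all untreated ones, and the share of all regions that do so was not counted. The ratios were 3.70 (3.51 to 3.90), 3.35 (3.19 to 3.51) and 2.77 (2.61 to 2.94) for the JunB shRNA, the CEBP-beta shRNA and the scramble. Over the 4 pairs the region rose by 1.87 ± 0.16 (log2, SE, 8 libraries; adjusted p = 0.00146 in edgeR's quasi-likelihood test), and it was higher in 4 of 4 pairs. This fit called 44.0% of 15598 regions.

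The stretch called at Ccl5 differed too. An island covered 100% of the gene in all 4 libraries with IFNγ alone for 4 h. It covered 48.9% of the gene after IFNγ for 2 h, 40.5% with both cytokines for 4 h and 32.0% in untreated cells. In the untreated shRNA libraries it covered 40.5% with the JunB shRNA, 70.0% with the CEBP-beta shRNA and 36.2% with the scramble. After IL-4 alone at either time no island touched the gene or its flanks, and with both cytokines at 2 h an island reached the flank but covered 0% of the gene. At this window Ccl5 therefore has no value in the IL-4 libraries, and its density was fitted only over the 4 IFNγ pairs, where it rose by 1.05 ± 0.16 (log2, SE; adjusted p = 0.00253 in edgeR). Its density was 222 normalised reads per kb after IFNγ for 4 h, 174 after 2 h, 158 and 87.7 with both cytokines at 2 h and 4 h, and 69.8 in untreated cells.

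**Figure D4:**
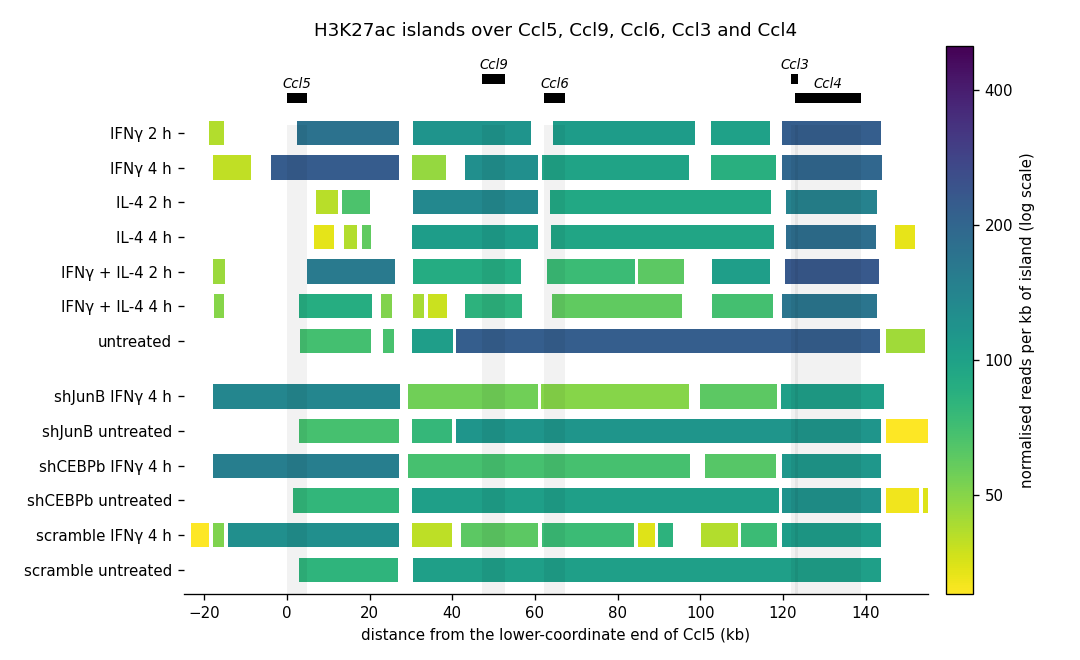
Islands over the block from Ccl5 to Ccl4, drawn to scale by distance in kb from the lower coordinate of Ccl5, 1 row per library with treated rows above their untreated row, and shaded by normalised reads per kb. Islands at Ccl5 are longest after 4 h of IFNγ, reaching 45.2 kb, while the island from Ccl9 to Ccl4 breaks into shorter pieces after treatment.

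Ccl9, Ccl6, Ccl3 and Ccl4 shared a region of 115.2 kb (chr11:83555001-83670200) with Ccl16-ps, Rpl9-ps1, E230016K23Rik, Gm38933 and Gm51868. Here acetylation was highest in untreated cells. The region held 13637.6 normalised reads after IFNγ for 2 h and 12150.5 after 4 h. It held 12166.1 and 12366.7 after IL-4 for 2 h and 4 h, and 11270.8 and 8183.9 with both cytokines, against 23362.4 in untreated cells. All 6 treated libraries were below the untreated one, and the library with both cytokines at 4 h was the lowest. The share of all regions lower in all 6 was not counted. The region was 2.85-fold (2.79 to 2.92) lower than untreated cells with both cytokines at 4 h and 2.07-fold (2.03 to 2.12) lower with both at 2 h. Each cytokine alone left it 1.71-fold to 1.92-fold lower. Over the 7 cytokine libraries the effect was -0.56 ± 0.18 for IFNγ and -0.63 ± 0.16 for IL-4, each averaged over the states of the other (log2, SE; adjusted p = 0.134 and 0.142 in edgeR's quasi-likelihood test), and neither was called. Its rank among all regions was 12 in untreated cells.

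In JunB shRNA cells the Ccl9-to-Ccl4 region held 7216.3 normalised reads with IFNγ and 12597.1 without. In CEBP-beta shRNA cells it held 8519.5 with IFNγ and 11992.2 without, and in scramble cells 7187.5 with IFNγ and 11660.2 without. The IFNγ libraries again lay below the untreated ones, 1.75-fold, 1.41-fold and 1.62-fold lower in that order of backgrounds. The share of all regions that separate in this way was not counted. Over the 4 pairs the region fell by 0.73 ± 0.10 on the log2 scale (SE, 8 libraries; adjusted p = 0.00354 in edgeR's quasi-likelihood test), and it was lower in 4 of 4 pairs. This fit called 44.0% of 15598 regions. Without the background as block the estimate was -0.77 with an adjusted p of 0.0615 in edgeR.

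Island densities separate the genes of this region only where islands do. Ccl9 had a density of 116 normalised reads per kb after IFNγ for 2 h and 124 after 4 h, 134 and 106 after IL-4, and 88.3 and 82.1 with both, against 218 in untreated cells. Ccl6 had 107 and 98.2 after IFNγ, 92.4 and 95.2 after IL-4, and 73.6 and 59.8 with both, against 218 in untreated cells. Ccl3 and Ccl4 had 217 and 198 after IFNγ, 143 and 182 after IL-4, and 231 and 167 with both, against 218 in untreated cells. In untreated cells 1 island of 102.4 kb held all 4 genes, so they share that value, whereas after treatment Ccl3 and Ccl4 sat on an island of their own of 22.0 to 24.8 kb. Untreated JunB shRNA and scramble cells had such a long island too (102.6 and 113.2 kb), while untreated CEBP-beta shRNA cells had islands of 88.8 and 23.8 kb. Over the 4 pairs with and without IFNγ for 4 h, density fell by 0.80 ± 0.10 for Ccl9 and by 0.85 ± 0.13 for Ccl6 on the log2 scale (SE; adjusted p = 0.00129 and 0.0033 in edgeR's quasi-likelihood test). The estimate for Ccl3 and Ccl4 was -0.09 ± 0.09 (adjusted p = 0.536 in edgeR). The difference between Ccl6 and Ccl3 was not tested. Density at Ccl6 also fell with IL-4 over the cytokine libraries, by 0.87 ± 0.16 (adjusted p = 0.048 in edgeR), in a fit that called 0.446% of genes. Except in CEBP-beta shRNA cells, the untreated densities of Ccl9 and Ccl6 average over an island that also holds Ccl3 and Ccl4. There, loss at these genes and the splitting of that island cannot be told apart. In CEBP-beta shRNA cells, Ccl9 and Ccl6 shared an island apart from Ccl3, with a density of 69.0 with IFNγ and 103 without.

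**Figure D5:**
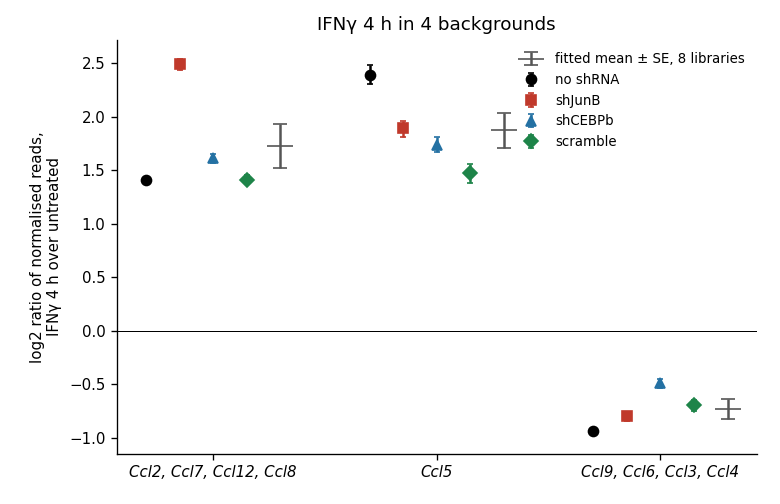
Log2 ratio of normalised reads, IFNγ for 4 h over untreated, in the 3 chemokine regions, with 1 coloured point per background and its 95% counting interval, and a grey bar for the fitted mean ± SE over 8 libraries. The Ccl2-to-Ccl8 and Ccl5 regions are above 0 and the Ccl9-to-Ccl4 region is below 0 in all 4 backgrounds, and the ratio at Ccl2 to Ccl8 is largest in JunB shRNA cells.

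No chemokine region passed the test for either shRNA against the scramble. With IFNγ, the ratio to scramble at the Ccl2-to-Ccl8 region was 1.11 for the JunB shRNA and 0.914 for the CEBP-beta shRNA. Without IFNγ, the region was 1.90-fold (1.82 to 1.98) lower with the JunB shRNA and 1.26-fold lower with the CEBP-beta shRNA than with the scramble. At the Ccl5 region the ratio of the JunB shRNA to scramble was 1.18 with IFNγ and 0.881 without, and that of the CEBP-beta shRNA was 1.29 with and 1.07 without. At the Ccl9-to-Ccl4 region the ratio was 1.00 with IFNγ and 1.08 without for the JunB shRNA, and 1.19 with and 1.03 without for the CEBP-beta shRNA. Over the 6 libraries, the JunB shRNA estimate on the log2 scale was -0.36 ± 0.26 at Ccl2 to Ccl8, 0.03 ± 0.12 at Ccl5 and 0.06 ± 0.10 at Ccl9 to Ccl4 (SE; adjusted p = 0.563, 0.94 and 0.822 in edgeR's quasi-likelihood test). The CEBP-beta shRNA estimate was -0.24 ± 0.26, 0.23 ± 0.12 and 0.14 ± 0.10 for the same regions (adjusted p = 0.85, 0.724 and 0.773 in edgeR). In both fits edgeR called 0% of 17047 regions. For the JunB shRNA 2687 regions had an unadjusted p under 0.05 and DESeq2 called 616, and for the CEBP-beta shRNA the counts were 1333 and 75. Both shRNAs share the scramble libraries.

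Over single-library comparisons, the size rule asked for a log2 ratio of 1 or more in either direction and for 50 or more normalised reads in whichever library was higher. Of the 3 chemokine regions, 2 passed for IFNγ against untreated at 2 h and 2 at 4 h, beside 36.6% and 40.0% of all regions. For IL-4 2 passed at each time, beside 32.7% at 2 h and 33.1% at 4 h. All 3 passed for both cytokines at 2 h, beside 39.2% of all regions, and 2 at 4 h, beside 36.9%. For both cytokines against IFNγ alone, 0 passed at 2 h and 1 (Ccl5) at 4 h, beside 15.4% and 25.6%. Against IL-4 alone 1 (Ccl5) passed at each time, beside 31.0% and 32.7%. None passed between 4 h and 2 h of 1 treatment, where the shares over all regions were 24.7% for IFNγ, 12.2% for IL-4 and 25.1% for both. With IFNγ in the shRNA backgrounds 2 of 3 passed each time, beside 25.9% with the JunB shRNA, 25.4% with the CEBP-beta shRNA and 25.8% with the scramble. None passed between an shRNA and the scramble, where the shares over all regions with and without IFNγ were 7.23% and 9.13% for JunB and 5.25% and 5.75% for CEBP-beta.

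The untreated libraries of the experiments differed from each other. Untreated scramble cells had 1.95-fold less signal at Ccl2 to Ccl8 and 2.00-fold (1.96 to 2.05) less at Ccl9 to Ccl4 than untreated cells of the cytokine experiment, and 1.39-fold more at Ccl5. The size rule was passed by 1 of the 3 regions (Ccl9 to Ccl4), beside 19.9% of all regions. The scramble shRNA, the experiment, and the share of reads in islands given above cannot be told apart here, so treatments and shRNAs were compared only within an experiment. The difference in the IFNγ response at 4 h between the experiments passed the threshold at none of these regions. This difference, cytokine experiment minus knockdown experiment, was -0.43 at Ccl2 to Ccl8, 0.69 at Ccl5 and -0.28 at Ccl9 to Ccl4 on the log2 scale. The cytokine experiment has 1 such pair, which the fit matches exactly. The spread in this fit therefore comes from the knockdown pairs alone.

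No region lay between members of 1 block without also holding a member. Between the blocks there were 39 regions and 26 protein-coding genes. In the fit over the 4 IFNγ pairs, 11 of the 25 of these regions that were tested rose and 0 fell, with a median of 0.34 on the log2 scale. Over all 15598 regions tested 44.0% were called, 3321 upward and 3536 downward, so the share called between the blocks was that of all regions. Of these regions, the one nearest to Ccl8 that was called in 13 of 13 libraries held no annotated gene and lay 18.2 kb beyond it (chr11:82135001-82142000). It held 877.0 normalised reads after IFNγ for 2 h and 408.9 after 4 h, 1928.5 and 1636.5 after IL-4, and 1471.6 and 1169.0 with both, against 165.1 in untreated cells. It was thus highest after IL-4, 11.7-fold (9.81 to 14.0) above untreated cells at 2 h and 9.91-fold (8.32 to 11.9) at 4 h, and lowest among treated cells after IFNγ for 4 h. It rose by 0.94 ± 0.21 over the 4 IFNγ pairs (log2, SE; adjusted p = 0.0159 in edgeR). The region of Ccl1, a chemokine that binds Ccr8, began 39.6 kb beyond Ccl8. It held 2215.1 and 1754.8 after IFNγ for 2 h and 4 h, 4267.3 and 4015.3 after IL-4, and 4859.3 and 4151.8 with both, against 909.2 in untreated cells. Summed reads at Ccl1 rose by 1.38 ± 0.21 over the 4 IFNγ pairs (log2, SE; adjusted p = 0.00542 in edgeR), while its island density was not called (0.34 ± 0.14, adjusted p = 0.134 in edgeR). Towards the second block, a region of Slfn4 and the region of Slfn1, both of the schlafen family, rose with IFNγ over the cytokine libraries by 2.63 ± 0.19 and 2.63 ± 0.31 (log2, SE; adjusted p = 0.0222 and 0.0227 in edgeR). That fit called 7.22% of 15355 regions, and no region when any 1 library was left out. Over the 4 IFNγ pairs the Slfn1 region rose by 1.22 ± 0.31 (adjusted p = 0.0261 in edgeR), and the Slfn4 region was not called (0.98 ± 0.43, adjusted p = 0.118 in edgeR). The IFNγ response of that Slfn4 region was larger in the cytokine pair than in the knockdown experiment, by 2.19 on the log2 scale. The fit matches the cytokine pair exactly, so it holds no spread for that pair.

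A list of 12 other chemokine genes held some of the CC genes outside the cluster set, with Cx3cl1 and Xcl1. Among them, 8 had regions that could be compared after IFNγ for 4 h in the cytokine experiment. Of these 3 passed the size rule upward (Ccl22, Ccl17 and Ccl11, of which Ccl11 shares the Ccl2-to-Ccl8 region) and 3 downward (Ccl24, Ccl28 and Ccl25), beside 14.7% of genes upward and 12.5% downward. The median log2 ratio was 0.47, against 0.01 over all genes. With each cytokine alone, Ccl24, an eotaxin that attracts eosinophils and shares a region with Hip1 and Ccl26, went the other way from Ccl5. It held 506.0 normalised reads after IFNγ for 2 h and 209.3 after 4 h, 3015.2 and 1492.9 after IL-4, and 4706.8 and 5875.3 with both, against 605.7 in untreated cells. At Ccl24, as at Ccl5, both cytokines gave more than IL-4 alone at 2 h and at 4 h. The Ccl24 value with both cytokines at 4 h was 28.1-fold (24.9 to 31.7) above that with IFNγ alone. After IFNγ for 4 h it was 6.45-fold lower in JunB shRNA cells, 5.92-fold lower in CEBP-beta shRNA cells and 6.30-fold lower in scramble cells than in the matching untreated cells.

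Of 15 receptor genes, 11 could be compared after IFNγ for 4 h, of which 3 passed upward (Ackr2, Ccr9 and Ccrl2) and 1 downward (Ccr6). Over all genes 14.7% passed upward and 12.5% downward. The median log2 ratio of the receptors was 0.18, against 0.01 over all genes. The scavenger receptor Ackr2, which takes up many CC chemokines and shares a region with Cyp8b1, held 2601.7 normalised reads after IFNγ for 4 h, against 437.0 in untreated cells. Ccr9, the receptor of Ccl25, held 2424.7 after IFNγ for 4 h, against 747.8 in untreated cells. Ccr1, the receptor of Ccl3, Ccl5, Ccl6 and Ccl9, held 28251.1 after IFNγ for 2 h and 12602.9 after 4 h, against 12237.2 in untreated cells. These values are sums over its regions, only part of which is shared with Ccr1l1. Ccr1l1 held 3991.2 after IFNγ for 2 h and 2070.6 after 4 h, against 1833.0 in untreated cells. Ccr6, the receptor of Ccl20, was lower than in untreated cells (1704.3) in all 6 treated libraries of the cytokine experiment, with 101.0 after IFNγ for 2 h as the lowest. The share of all genes lower in all 6 was not counted. Ccl19, Ccl20, Ccl27a, Xcl1, Ccr7, Ccr8, Ackr1 and Ackr4 were not called in any library.

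The genes elsewhere whose regions varied most like the chemokine regions were ranked by the Pearson correlation of log2 normalised reads over the 13 libraries of both experiments, so differences in level between the experiments enter the values, which are descriptions of points that share depth and scaling. For the Ccl2-to-Ccl8 region they were Qpct (r = 0.974), Diaph2 (0.971) and Gna15 (0.967). For Ccl5 they were Tmem67 and Rbm12b2, which share 1 region (0.970), and Il2ra (0.967). For the Ccl9-to-Ccl4 region they were Arhgap25 (0.947), Kif18b (0.938) and Dtl (0.937).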

How the data were processed

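The deposited files list H3K27ac islands of 13 libraries on mm10 (GRCm38). The authors aligned with Bowtie2 2.2.6 and called islands with SICER 1.1, per the submitters' processing notes. Each island carries the deposited ChIP and control read counts, a p-value, a fold over control (a ratio) and a false discovery rate, all computed by the authors. The p-values, folds and rates were not used in any test. Control reads agreed in 29680 of 29680 islands with shared coordinates, so 1 control library of 14110230 reads served all libraries. Reads outside islands are not in the files, so a region missing from a library has no count: it was set to the 5th percentile of reads per island of that library for folds and left out of fits.

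Islands overlapping by at least 1 base were joined into union regions and their ChIP counts summed. Size factors were median ratios over the 14347 regions called in all 13 libraries, and counts over their library's factor are called normalised reads. A gene took the regions touching its span or 1.0 kb on either side, using RefSeq names of GRCm38.p6. Fits used edgeR 4.0.16 (quasi-likelihood, Benjamini-Hochberg over all regions called in every library of the fit, threshold 0.05), with DESeq2 1.42.0 as an alternative, in R 4.3.3, and were tested on simulated data. Other steps used Python 3.11.15, numpy 2.4.6, pandas 2.3.3, scipy 1.17.1 and matplotlib 3.10.9. The IL-4 and IFNγ fits over the cytokine libraries took the state of the other cytokine as block, and the shRNA fits took IFNγ as block. The IL-4 by IFNγ term, the difference between experiments and the island densities were added after the data were seen. The genes, their neighbours, the genes of most similar pattern and the lists of other chemokines and receptors (those past the size rule, up to 4) were chosen with earlier results of these data known. Alternatives changed the scaling, the length correction, the union, control subtraction, the flank, the block and the libraries included. Antibody reads sum over large regions, so a total mixes length called and height. One receptor gene and one motif that were also examined are not reported here.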

Additional observations from a re-analysis of the deposited data

Results flagged for a closer look

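At the Ccl2-to-Ccl8 region, every IL-4 effect without IFNγ was above 0 and every one with IFNγ was below 0. The log2 ratio of IL-4 to untreated cells was 1.59 at 2 h and 1.15 at 4 h, and that of both cytokines to IFNγ alone was -0.15 at 2 h and -0.07 at 4 h. The means differ by 1.48. The interaction term did not pass the threshold in edgeR, and that fit holds no spread for the untreated library, which it matches exactly.

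The region with no annotated gene 18.2 kb beyond Ccl8 stood out in the same way for IFNγ. The log2 ratio of IFNγ to untreated cells was 2.41 at 2 h and 1.31 at 4 h, and that of both cytokines to IL-4 alone was -0.39 at 2 h and -0.48 at 4 h, a difference of 2.30 between the means. Its interaction term was -2.60 on the log2 scale and did not pass the threshold in edgeR, in a fit with the same limit. All of these comparisons use 1 library per condition, and those against untreated cells share that library.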

How the results depend on the processing

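Over the 189 pairs of a gene and a single-library comparison, 59 passed the size rule, against 33 per kb of called length. Genes of 1 region are counted singly here although they share its reads. Library totals moved 5 of the 189 values, reads per kb of called length 34, control subtraction 26, a union over the compared libraries alone 9, and a 10 kb flank 3. That union turned Ccl8 in untreated scramble over untreated cells to 1.47, against -0.96 with all 13 libraries, because Ccl8 then has a region of its own. Library totals shifted the median of all regions by up to 0.16 on the log2 scale, for IL-4 at 4 h over untreated cells.

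Counts of regions called moved as follows. The fit over 4 IFNγ pairs called 6857, 10946 when regions absent from some libraries, though never from most of them, were admitted, and 4508 to 7664 when 1 pair was left out. The IL-4 fit called 29, 187 with that wider filter, 1533 with DESeq2 and 0 when any 1 library was left out. The IFNγ fit over the cytokine libraries called 1108, against 1941, 2996 and 0. The difference between experiments called 913, against 553 with the wider filter and 1515 with DESeq2. DESeq2 called 616 for the JunB shRNA, 75 for the CEBP-beta shRNA and 1849 for the interaction, against 0 for each in edgeR.

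At the chemokine regions, the Ccl2-to-Ccl8 estimate for IL-4 ran from -0.11 without the untreated library to 0.74, and that for IFNγ over the cytokine libraries from 0.05 without it to 0.94. The Ccl5 estimate for IFNγ over the cytokine libraries ran from 2.07 to 2.30 with 1 library left out. DESeq2 called Ccl5 for IL-4 (-1.27) and Ccl2 to Ccl8 for the interaction (-1.60). The Ccl5 interaction estimate was 0.01 with TMM scaling and with DESeq2, against -0.01. Without the block, Ccl9 to Ccl4 was -0.77 for IFNγ. No paired analysis was possible because no replicate numbers are shared, and the pairs fitted above are those of a treatment within a background. The single library per condition and the called length of islands limit every value here.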
